A study of Homo sapiens with 6 samples.

Results

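The classical cadherins and the catenins that bind them were examined in PANC-1, a long-established line of human pancreatic cancer cells, with and without knockdown of ZDHHC20. The genes were taken as a list by name: the cadherins CDH1, CDH2, CDH3 and CDH11, and the catenins CTNNA1, CTNNB1 and CTNND1. Of these 7 genes, 6 had a row in the expression table of 27394 genes, and all 6 were among the 22189 genes tested. CDH11 was not analysed here, because it had no row in the table, in which the smallest sum over the 6 libraries was 1.88.

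The series holds 6 RNA-seq libraries, 3 from cells given a control shRNA (shControl) and 3 from cells given an shRNA against ZDHHC20 (shZDHHC20), a palmitoyltransferase that attaches fatty acid chains to cysteines of other proteins. All cells were PANC-1, kept in RPMI-1640 medium by the sample labels and in DMEM by the study's methods, with 10% fetal bovine serum in both, and strand-specific Illumina libraries were made from total RNA. The sources do not say which shRNA was used for these libraries, whether the cells were a pool or a clone, or whether the replicates were separate cultures, so p-values measure only the spread between these samples. Each library gave 1 normalized count per gene, which is a read count divided by a factor of that library and not divided by gene length.

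Classical cadherins are membrane proteins that hold neighbouring cells together at adherens junctions, each binding mainly its own kind on the next cell in the presence of calcium. Inside the cell, delta-catenin binds the cadherin next to the membrane and keeps it at the surface, beta-catenin binds further along the tail, and alpha-catenin connects beta-catenin to actin filaments. Beta-catenin that is not bound to cadherins can enter the nucleus and act with TCF and LEF factors in Wnt signalling, and a swap of E-cadherin (CDH1) for N-cadherin (CDH2) is a well known feature of epithelial-mesenchymal transition in carcinomas.

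The libraries' normalized counts summed to between 17083277 and 18007664. Their depth relative to the mean of the 6 lay between 93.1% and 104%. This holds only if the smallest value above 0 stands for the same number of reads in each library, which was not established. Replicate 2 of shZDHHC20 stood apart from the other libraries of its group. Over 4136 genes whose mean reached 1000, the SD of log2 differences was 0.0722 between shZDHHC20 replicates 1 and 3, but 0.178 and 0.198 between replicate 2 and those libraries, against 0.0674 to 0.0718 among the shControl libraries. Mitochondrial genes held 4.01% of the counts in that library and 5.28% to 5.52% in the others. Results are therefore also given without it. ZDHHC20 itself had normalized counts of 2001, 2033 and 1940 in shControl and 872, 779 and 893 in shZDHHC20, and its log2 fold change was -1.23 (adjusted p = 4.36e-07, limma). The labels therefore matched the level of the targeted gene in all 6 libraries.

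Among the measured cadherins and catenins, CDH1 rose 2.19-fold with ZDHHC20 knockdown and CTNNA1 rose 1.12-fold, while CDH2, CDH3, CTNNB1 and CTNND1 did not pass the test. So 2 of the 6 genes passed at an adjusted p under 0.05 (limma, Benjamini-Hochberg over all genes tested), both of them higher, and 0 were lower, also at an unadjusted p under 0.05. Over all genes tested, 11.5% passed, 4.61% being higher and 6.84% lower in shZDHHC20. The libraries of the 2 groups did not overlap for 4 of the 6 genes, 3 higher and 1 lower, while 28.6% of all genes tested did not overlap. The median log2 fold change of all genes tested was 0.01. Without shZDHHC20 replicate 2 the count of members that passed was again 2, while leaving out any other single library left 1.

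CDH1 encodes E-cadherin, the main adhesive cadherin of epithelia. Its normalized counts were 273, 291 and 297 in shControl replicates 1, 2 and 3. They were 608, 588 and 690.0 in shZDHHC20 replicates 1, 2 and 3. Every shZDHHC20 library was above every shControl library, and the gap between the groups was wider than the whole range within either of them. The group means were 287 ± 12.8 and 629 ± 54.0 (SD, n = 3 each), and the log2 fold change was 1.13 (SE 0.0871, 95% interval 0.94 to 1.32, adjusted p = 6.62e-06, limma). CDH1 stood 24th of the 22189 genes tested when ordered by p-value. Of the 10908 genes whose mean reached 100, 7 others had a log2 fold change at least as high. Over the 15 alternative settings the log2 fold change of CDH1 stayed between 1.06 and 1.17, with an adjusted p from 3.13e-08 to 0.0266, and without shZDHHC20 replicate 2 it was 1.17. A bulk library cannot tell more CDH1 mRNA per cell from a larger share of cells that express CDH1.

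**Figure D1:**
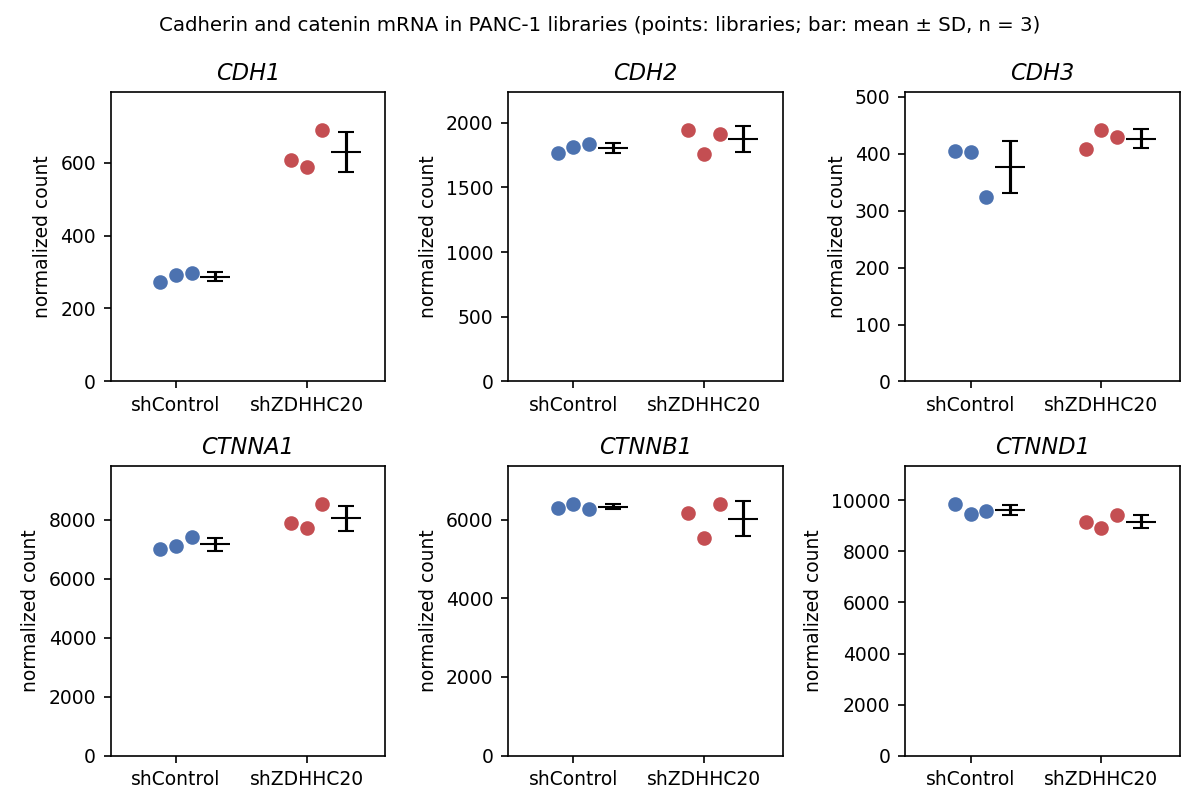
Normalized counts (y axes, starting at 0 and scaled for each gene) of the 6 measured cadherin and catenin genes in the 3 shControl (blue) and 3 shZDHHC20 (red) libraries, in replicate order from left to right. Points are libraries and bars are the mean ± SD; CDH1 moves from 273 to 297 in shControl to 588 to 690.0 in shZDHHC20, while the groups of CDH2 and CTNNB1 overlap.

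CDH2 encodes N-cadherin, the cadherin of neurons and many mesenchymal cells. Its normalized counts were 1766, 1814 and 1839 in shControl and 1946, 1757 and 1913 in shZDHHC20. The groups overlapped, since shZDHHC20 replicate 2 was the lowest of all 6 libraries and the other shZDHHC20 libraries were the highest. The log2 fold change was 0.05 (SE 0.0571, adjusted p = 0.653, limma), with a 95% interval from -0.07 to 0.17. Without shZDHHC20 replicate 2 it was 0.10, with an adjusted p of 0.132. At this precision no change of CDH2 was detectable, and its interval lay wholly below the interval of CDH1.

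CDH3 encodes P-cadherin, found in basal layers of several epithelia and in many pancreatic carcinomas. Its normalized counts were 404, 403 and 324 in shControl and 409, 442 and 429 in shZDHHC20. The groups did not overlap, but shControl replicate 1 and shZDHHC20 replicate 1 differed by only about 5 counts, and shControl replicate 3 stood well below its group. The log2 fold change was 0.19 (SE 0.0978, 95% interval -0.03 to 0.40, adjusted p = 0.276, limma). Without shControl replicate 3 it was 0.08, with an adjusted p of 0.698, so the distance of the group means rested largely on that library.

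CTNNA1 encodes the alpha-catenin of epithelia, the actin-binding link of the complex. Its normalized counts were 6993, 7111 and 7413 in shControl and 7901, 7721 and 8536 in shZDHHC20. All 3 shZDHHC20 libraries were above all 3 shControl libraries, and shZDHHC20 replicate 3 was the highest. The log2 fold change was 0.17 (SE 0.0492, 95% interval 0.06 to 0.27), and the adjusted p of 0.045 (limma) was close to the threshold. It passed in 7 of 16 settings, the reported one included. Median-ratio scaling, 1 of the 7, divided every library by the same factor (1.0045) and so nearly repeats the reported fit. The adjusted p was 0.000988 without shZDHHC20 replicate 2. It was between 0.0996 and 0.205 when any other single library was left out, with a log2 fold change from 0.12 to 0.19, so the call of CTNNA1 was lost in each of those 5 cases.

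CTNNB1 encodes beta-catenin, which serves both the junction and Wnt signalling. Its normalized counts were 6306, 6398 and 6275 in shControl and 6172, 5521 and 6389 in shZDHHC20. The groups overlapped, and shZDHHC20 replicate 2 was the lowest library by a wide margin. The log2 fold change was -0.07 (SE 0.0545, 95% interval -0.19 to 0.05, adjusted p = 0.468, limma), and without shZDHHC20 replicate 2 it was -0.01.

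CTNND1 encodes delta-catenin, which keeps cadherins from being taken up and degraded. Its normalized counts were 9856, 9476 and 9580 in shControl and 9162, 8900 and 9444 in shZDHHC20. The shZDHHC20 libraries were all below the shControl libraries, with shControl replicate 2 and shZDHHC20 replicate 3 almost touching. The log2 fold change was -0.07 (SE 0.043, 95% interval -0.16 to 0.02, adjusted p = 0.344, limma), and without shZDHHC20 replicate 2 it was -0.05 with an adjusted p of 0.215. None of CDH2, CDH3, CTNNB1 and CTNND1 passed in any of the 16 settings.

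**Figure D2:**
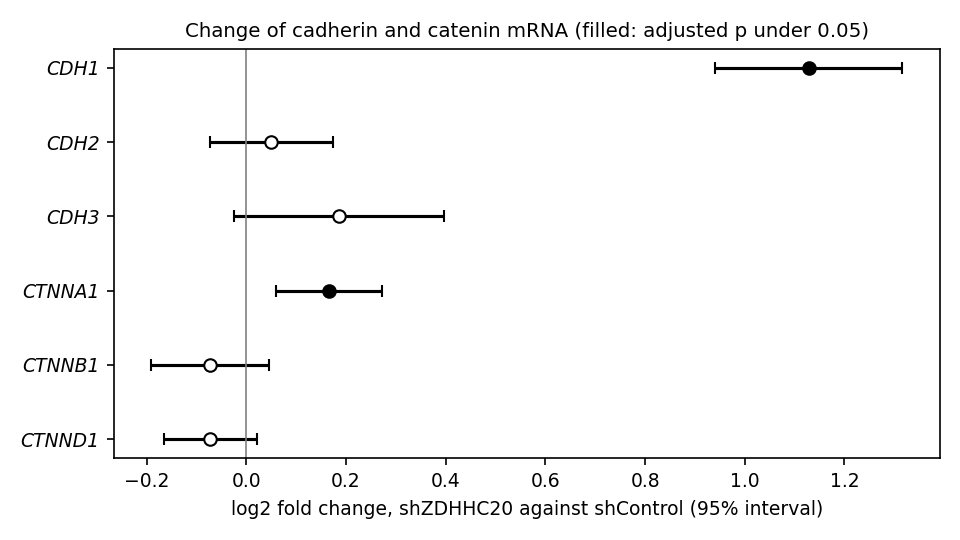
Log2 fold change of shZDHHC20 against shControl (x axis) for the 6 measured cadherin and catenin genes, with bars giving the 95% interval of the limma model and filled points an adjusted p under 0.05. CDH1 (1.13) lies apart from the other genes, which range from -0.07 to 0.19.

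The genes lie apart from each other in the genome except for 1 pair. In GENCODE 29 on GRCh38, CDH1 (ENSG00000039068) spans 68737225 to 68835548 of chromosome 16, plus strand. CDH3 (ENSG00000062038) lies just before it on the same strand, from 68636189 to 68722616, and 14608 bases separate its end from the start of CDH1. CDH2 (ENSG00000170558) spans 27950966 to 28177446 of chromosome 18, minus strand. Among the catenins, CTNNA1 (ENSG00000044115) is on chromosome 5 from 138610967 to 138935034, CTNNB1 (ENSG00000168036) on chromosome 3 from 41194741 to 41260096, and CTNND1 (ENSG00000198561) on chromosome 11 from 57753243 to 57819546, all on the plus strand. Within 250 kb of CDH1 on either side, 9 other genes had a row and 3 were tested, and 0 of those 3 passed (limma), while 1, ZFP90, had an unadjusted p under 0.05. ZFP90, a zinc finger gene, had a log2 fold change of -0.22 (adjusted p = 0.129), CDH3 had 0.19, and TANGO6 had 0.01 (adjusted p = 0.974). The 95% intervals of all 3 lay below that of CDH1, the highest of them, that of CDH3, reaching 0.40.

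Some of these genes share sequence with others in the annotation, and whether reads were counted by strand is not given in the sources used here. CDH1 overlaps an exon of an antisense gene that had no row. CTNNA1 overlaps exons of LRRTM2 on the other strand, which had a mean of 2.29 over the 6 libraries. CTNND1 shares exons with the readthrough gene TMX2-CTNND1, which had no row, so the counts of CTNND1 may include or lack reads that fit both.

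To compare levels between genes, each value was divided by the summed length of the gene's exons in kilobases. In shControl the catenins were the most abundant members. CTNND1 had 1095 ± 22.3 normalized counts per kb, CTNNA1 812 ± 24.5 and CTNNB1 530 ± 5.36 (SD, n = 3). Of the cadherins, CDH2 had 365 ± 7.48 per kb, CDH3 60.5 ± 7.32 and CDH1 46.5 ± 2.07. No neighbours in this order overlapped between libraries, the closest being CDH3 at 52.0 to 64.8 and CDH1 at 44.2 to 48.1. In shZDHHC20 the order of the last pair was turned, with CDH1 at 102 ± 8.74 per kb (95.2 to 112) and CDH3 at 68.5 ± 2.68 (65.6 to 70.9), and the other members kept their places. Divided by the longest coding transcript instead, the order of the cadherins was the same in both groups, but CTNNA1 came before CTNND1 in shControl (1872 against 1471 per kb), so the order of those catenins depends on the length used.

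The make-up of the cadherin pool was described as the share of each of CDH1, CDH2 and CDH3 in their summed level per kb. CDH1 held 9.48%, 9.86% and 10.2% in shControl and 17.7%, 18.3% and 19.7% in shZDHHC20. The groups did not overlap, and the mean share of CDH1 went from 9.85% ± 0.362 to 18.55% ± 1.04, a difference of 8.70 percentage points. With 3 libraries against 3 the exact permutation test (two-sided) gives p = 0.1, which is the smallest value it can give. The share of CDH2 was 77.3% ± 1.24 in shControl and 68.9% ± 1.39 in shZDHHC20, again without overlap (exact permutation p = 0.1). The share of CDH3 was 12.8% ± 1.56 and 12.5% ± 0.974 (exact permutation p = 0.9). CDH2 thus remained the most abundant of the 3 in every library, 7.85-fold above CDH1 per length in shControl and 3.715-fold in shZDHHC20.

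**Figure D3:**
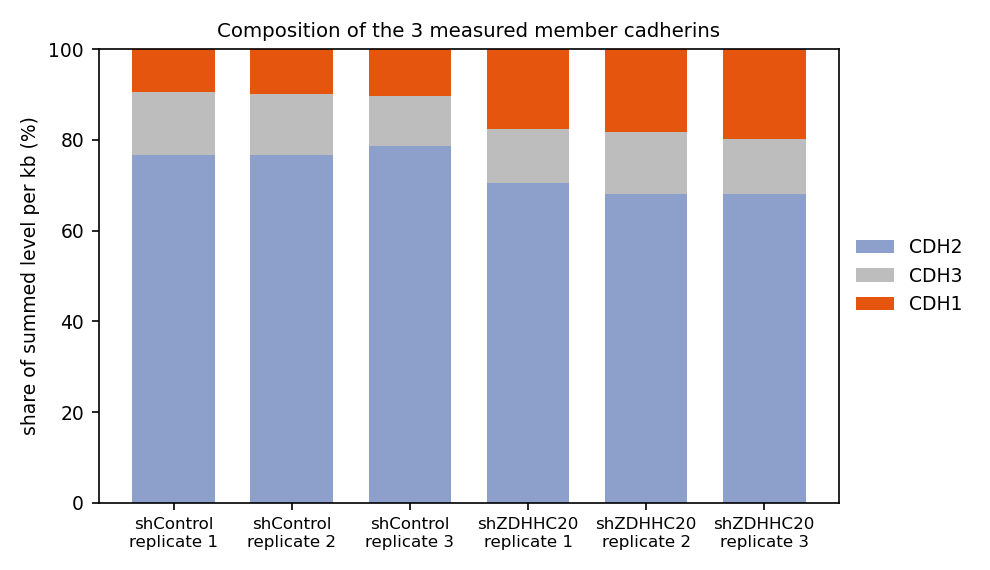
Share (%, y axis) of CDH1, CDH2 and CDH3 in their summed normalized counts per kb of exon, as 1 stacked bar for each of the 6 libraries. The CDH1 segment (top) takes 9.48% to 10.2% in the shControl libraries and 17.7% to 19.7% in the shZDHHC20 libraries, and CDH2 (bottom) is the largest segment in all 6.

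The summed cadherin level was 472 ± 6.18 per kb in shControl and 548.5 ± 24.2 in shZDHHC20, with the groups apart (exact permutation p = 0.1). The summed catenins CTNNA1, CTNNB1 and CTNND1 stood at 5.17 ± 0.0962 times the summed cadherins in shControl and at 4.48 ± 0.0726 times in shZDHHC20 (exact permutation p = 0.1). The size of this ratio depends on the length used. Per kb of the longest coding transcript, CTNNA1 and CTNNB1 had means of 1872 and 1336 in shControl, against 812 and 530 per kb of exon. CDH2 had 417 against 365. Within the catenins, the ratio of CTNNA1 to CTNNB1 was 1.498, 1.501 and 1.596 in shControl and 1.729, 1.889 and 1.805 in shZDHHC20. Every library of shZDHHC20 was above every library of shControl (exact permutation p = 0.1). These ratios are of mRNA, and protein at the junction was not measured in these files.

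Of 14 further type I and type II cadherins, 9 had a row and 6 were tested, and 0 passed in either direction (limma), with 0 at an unadjusted p under 0.05. CDH24, a type II cadherin, had the highest mean of them, with normalized counts from 241 to 283 in shControl and from 243 to 260 in shZDHHC20 (log2 fold change -0.06, adjusted p = 0.762). Per kb of exon it stood at 70.8 ± 5.83 in shControl, above CDH1 in all 3 libraries, and at 67.7 ± 2.53 in shZDHHC20, below CDH1 in all 3. CDH24 was not part of the shares above, and the other 5 tested were at most 6.33 per kb in any library. CDH4, the next by mean, had 23.1 to 32.3 and 25.4 to 39.4 (log2 fold change 0.20, adjusted p = 0.743). Of the atypical cadherins CDH26 and CDH17, 0 passed, with log2 fold changes of 0.46 and 0.61 (adjusted p = 0.568 and 0.798, limma). CDH1 was thus the only cadherin among the 11 tested that passed.

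Of 7 other catenins and their relatives 4 were tested, and 0 passed (limma), also at an unadjusted p under 0.05. JUP, which encodes gamma-catenin (plakoglobin) and can take the place of beta-catenin at the junction, had normalized counts from 4870 to 5084 in shControl and from 4791 to 5031 in shZDHHC20. Its log2 fold change was -0.01 (adjusted p = 0.897, limma). Per kb of exon it stood at 1.90 ± 0.0569 times CTNNB1 in shControl and 1.98 ± 0.101 times in shZDHHC20 (exact permutation p = 0.4). These factors rest on the summed exon lengths, 4942 bases for JUP and 11927 for CTNNB1. Undivided, CTNNB1 had the higher mean in shControl (6326 against 4983), so the order of these 2 genes depends on the length used. PKP4, a relative of delta-catenin, had a log2 fold change of -0.04 (adjusted p = 0.704, limma). Without shZDHHC20 replicate 2, 1 of the 4 tested genes of this list passed, ARVCF, a further relative of delta-catenin (log2 fold change -0.29, adjusted p = 0.0307, limma).

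The genes that tie the complex to actin and the nectins, a second adhesion system of the junction, moved in both directions. Of 16 listed genes 15 were tested, 1 rose and 5 fell, with a median log2 fold change of -0.06. Those that fell were the actin cross-linkers ACTN4 (-0.21, adjusted p = 0.00446) and ACTN1 (-0.19, adjusted p = 0.0246), the nectin NECTIN1 (-0.41, adjusted p = 0.0069), and the LIM proteins ZYX (-0.26, adjusted p = 0.0109) and AJUBA (-0.23, adjusted p = 0.0194), all from limma. AFDN, the afadin that anchors nectins to actin, rose by 0.22 (adjusted p = 0.0145). VCL, vinculin, which binds alpha-catenin under tension, had -0.10 (adjusted p = 0.209). Without shZDHHC20 replicate 2 the counts were 2 higher, with LIMA1 added, and 5 lower. With any other library left out 0 were higher and 1 to 4 lower. With 1 library left out, the highest adjusted p was 0.0527 for ACTN4, 0.0563 for NECTIN1, 0.0867 for ZYX and 0.08 for AFDN, and it was 0.124 for AJUBA and 0.121 for ACTN1.

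Of 18 genes of cadherin turnover and trafficking, 3 rose and 2 fell, and the median log2 fold change was 0.03. PTPN1, a tyrosine phosphatase that acts on beta-catenin and cadherin complexes, had normalized counts of 1719, 1832 and 1654 in shControl and 1229, 1190 and 1213 in shZDHHC20. It fell by 0.52 on the log2 scale (adjusted p = 8.96e-05, limma), with the groups well apart. RAB5A, a small GTPase of early endosomes, rose by 0.49 (adjusted p = 0.00023), and RAB11A, of recycling endosomes, by 0.21 (adjusted p = 0.0264). NUMBL, a relative of the endocytic adaptor Numb, fell by 0.50 (adjusted p = 0.004), and YES1, a Src family kinase, rose by 0.29 (adjusted p = 0.00753). PTPN1, RAB5A and NUMBL passed whichever library was left out, while YES1 and RAB11A did not in at least 1 case, with an adjusted p of up to 0.0616 and 0.149. With no mean-variance trend PTPN1 was the only gene of the list that passed, and RAB5A and NUMBL had an adjusted p of 0.0564 and 0.0928.

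Regulators known to act on the CDH1 promoter or on epithelial genes were taken as 2 lists. Of 12 repressors, 9 were tested, 0 rose (also 0 at an unadjusted p under 0.05) and 2 fell, with a median log2 fold change of 0.02. ZEB1, a repressor that binds E-boxes of the CDH1 promoter, had normalized counts of 594, 583 and 608 in shControl and 499, 466 and 496 in shZDHHC20. The groups were apart, and ZEB1 fell by 0.29 on the log2 scale (adjusted p = 0.02, limma), although the adjusted p rose to 0.103 without shControl replicate 3 and was above 0.05 in 4 of the 6 cases with 1 library left out. FOXC2 fell by 0.24 (adjusted p = 0.0449), and its adjusted p reached 0.22 without shControl replicate 1. SNAI1, SNAI2 and ZEB2 had log2 fold changes of -0.41, 0.26 and -0.26 and did not pass (adjusted p = 0.207, 0.548 and 0.5).

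The other list holds 12 activators of epithelial gene expression, of which ESRP1 and ESRP2 act on splicing and not on transcription. Of these 11 were tested, 2 rose and 1 fell, with a median log2 fold change of 0.32. That median leans on genes near 0, as the highest changes were those of ESRP1, OVOL2 and OVOL1. Their means over the 6 libraries were 6.64, 6.12 and 1.185, while EHF, with a mean of 3.32, had a log2 fold change of -0.03. ELF3, an ETS factor of epithelia, rose by 0.51 (adjusted p = 0.00027, limma), with 1110 to 1182 normalized counts in shControl and 1542 to 1766 in shZDHHC20. ESRP2, a splicing regulator of epithelial cells, rose by 0.50 (adjusted p = 0.00258). GRHL3, a grainyhead factor of surface epithelia, fell by 0.39 (adjusted p = 0.00103). ESRP1 and OVOL2 had higher values in every shZDHHC20 library, but at no more than 11.7 and 9.54 normalized counts, and did not pass (adjusted p = 0.222 and 0.245). ELF3, ESRP2 and GRHL3 passed whichever library was left out, but with no mean-variance trend in the model 0 of the list passed (adjusted p = 0.0638, 0.1 and 0.0637 for these 3). Without shZDHHC20 replicate 2 the counts were 3 higher and 2 lower, with TFAP2A and KLF4 added.

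Beta-catenin's signalling partners were read next, as CTNNB1 itself did not pass. Of 10 genes of the destruction complex that marks beta-catenin for degradation, 1 rose and 3 fell (median log2 fold change -0.05). GSK3B, a kinase of the complex, rose by 0.27 (adjusted p = 0.0226), and APC2, AMER1 and AXIN2 fell by 0.28, 0.49 and 0.56 (adjusted p = 0.0145, 0.0167 and 0.0168, limma). Of 10 transcription partners, 1 rose and 3 fell (median -0.01). TCF7L1, which mostly acts as a repressor, rose by 0.38 (adjusted p = 0.00471), and TCF7, BCL9 and TCF7L2 fell by 0.64, 0.33 and 0.31 (adjusted p = 0.000804, 0.00912 and 0.0457). TCF7 and TCF7L1 passed whichever library was left out, and with no mean-variance trend only TCF7 of these 2 lists did. TCF7 (mean 283) overlaps exons of SKP1 on the other strand, which had a mean of 2948. Whether reads were counted by strand is not given, so the counts of TCF7 may include reads of SKP1. PYGO1 was higher and passed in 1 setting, without shZDHHC20 replicate 2. The calls of the destruction complex were all lost in 3 of the 6 cases with 1 library left out, and the highest adjusted p of BCL9 and TCF7L2 in such cases was 0.0549 and 0.193.

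Of 15 genes known as Wnt and beta-catenin targets, 14 were tested, 0 rose (also 0 at an unadjusted p under 0.05) and 5 fell, with a median log2 fold change of -0.44. Several of the 14 were near 0. LEF1, NKD1 and APCDD1 (means of 6.45, 8.65 and 1.31 over the 6 libraries) had log2 fold changes below that median. TNFRSF19, LGR5 and SP5 (means of 1.34, 5.66 and 7.16) had log2 fold changes above it. CCND1, cyclin D1, had normalized counts of 9260, 9233 and 9381 in shControl and 6824, 6458 and 6855 in shZDHHC20. It fell by 0.47 on the log2 scale (adjusted p = 2.06e-05, limma), with the groups far apart. NKD2 and ZNRF3, feedback inhibitors of the pathway, fell by 0.62 and 0.40 (adjusted p = 0.00162 and 0.0315). The others that fell, TCF7 and AXIN2, are also counted above, and the limit from the overlap of TCF7 with SKP1 holds here too. DKK1, a secreted Wnt inhibitor and the most abundant target after CCND1, had a log2 fold change of 0.05 (adjusted p = 0.605). With 1 library left out, 3 to 5 targets were lower and 0 higher, and CCND1, TCF7 and NKD2 passed in all 6 cases, while AXIN2 reached an adjusted p of 0.087 and ZNRF3 one of 0.161. With no mean-variance trend 2 targets were lower, CCND1 and TCF7, and NKD2 had an adjusted p of 0.0859.

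**Figure D4:**
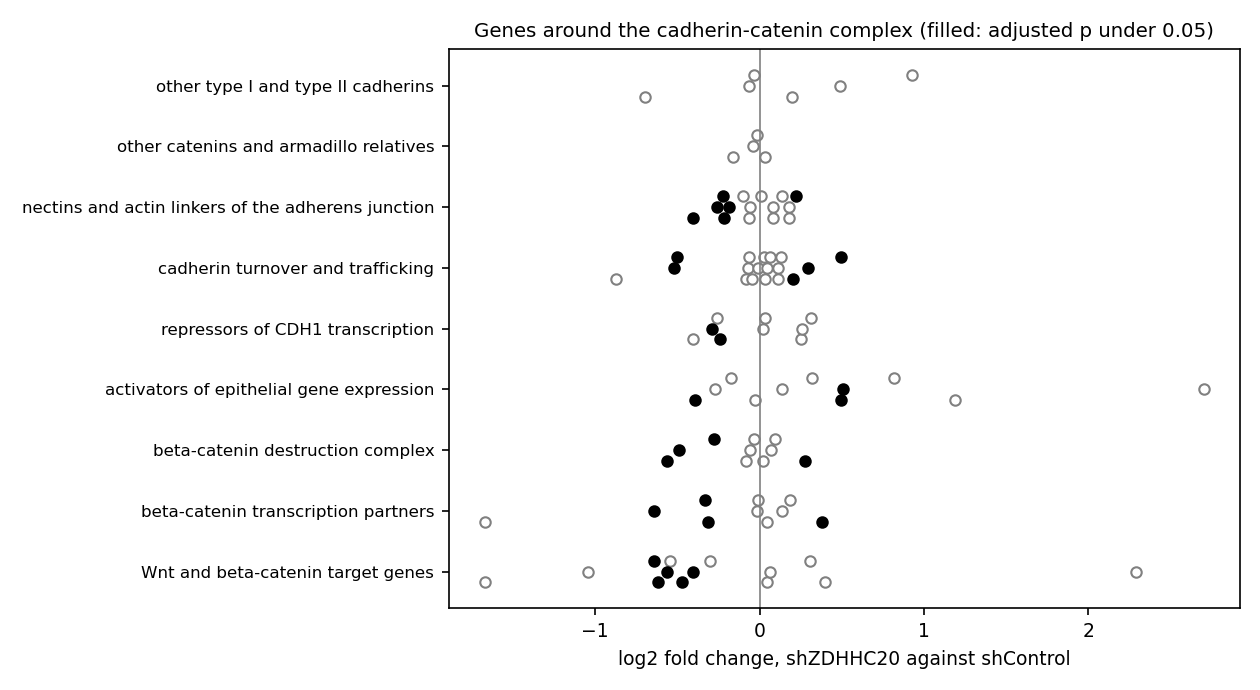
Log2 fold change of shZDHHC20 against shControl (x axis) for each tested gene of 9 lists of genes related to cadherins and catenins (rows, with points offset vertically for clarity), filled where the adjusted p was under 0.05. Filled points of the Wnt and beta-catenin target genes lie below 0 (5 of 5), and the other cadherins and other catenins have 0 filled points. Over all genes tested, 4.61% were higher and 6.84% lower at that threshold.

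CDH1 also belongs to the markers of duct and carcinoma epithelium, the cell type PANC-1 is labelled as. All 8 of these markers had a row, and their summed normalized counts were 84930 to 87120 in shControl and 79530 to 80430 in shZDHHC20. Most of that sum came from KRT8 (means of 56187 in shControl and 51529 in shZDHHC20) and KRT18 (19660 and 17570). EPCAM, an epithelial adhesion molecule, rose by 2.89 on the log2 scale (adjusted p = 6.7e-07, limma) and MUC1, a membrane mucin, by 0.38 (adjusted p = 0.0452). SOX9, a duct transcription factor, fell by 0.33 (adjusted p = 0.00146). The keratins KRT8, KRT18 and KRT19 had log2 fold changes of -0.13, -0.16 and 0.09 and did not pass (adjusted p = 0.0631, 0.0549 and 0.218), and that of KRT8 was above 0 after quantile normalization (0.0054). KRT8 and KRT18 were lower and passed without shZDHHC20 replicate 2 (adjusted p = 8.76e-06 and 0.00215). CDH1, EPCAM and SOX9 passed whichever library was left out, and MUC1 passed in 1 of those 6 cases, with an adjusted p of up to 0.2. KRT7, with a mean of 85.9 over the 6 libraries, had a log2 fold change of -0.06 (adjusted p = 0.91, limma). CDH1 was thus 1 of 3 markers of 8 that rose, while 1 fell. Over all genes tested, 4.61% were higher and 6.84% lower. The marker counts were 3 higher and 3 lower both without shZDHHC20 replicate 2 and with robust moderation. With no mean-variance trend 2 were higher, CDH1 and EPCAM, and 0 lower.

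Of 8 acinar and endocrine markers, 2 had a row, PRSS1 and SST, and their sum was 1.004 to 4.04 in shControl and 4.81 to 12.7 in shZDHHC20, while 0 passed (limma) and 1 had an unadjusted p under 0.05. Of 9 endothelial and leukocyte markers, 6 had a row, and their sum was 62.1 to 88.9 in shControl and 53.9 to 74.2 in shZDHHC20, with 0 of the 3 tested past the threshold, also at an unadjusted p under 0.05 (limma). KDR and CD14, the most abundant of them, had log2 fold changes of -0.27 each (adjusted p = 0.61 and 0.687, limma). Of 8 fibroblast and mesenchymal markers, 5 had a row and were tested, 0 rose and 1 fell, while 1 was higher and 2 were lower at an unadjusted p under 0.05. Their sum was 3993 to 4063 in shControl and 3203 to 3490 in shZDHHC20. COL1A1, a fibrillar collagen chain, fell by 0.27 (adjusted p = 0.00288, limma), but had an adjusted p of 0.113 with no mean-variance trend. COL3A1, another such chain, had a log2 fold change of 0.18 (adjusted p = 0.563) and THY1, a surface protein of fibroblasts, -0.86 (adjusted p = 0.153). LUM, lumican, had 0 in all shControl libraries and 3.18, 0.939 and 2.89 in shZDHHC20 (adjusted p = 0.188), and passed only with no mean-variance trend (adjusted p = 0.0398). The part of other cells in the change of CDH1 was not tested.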

How the data were processed

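RNA-seq of PANC-1 cells was analysed from the table that the authors deposited, with 3 shControl and 3 shZDHHC20 libraries and replicates kept apart. The authors deposited 1 normalized signal for each gene in each library. Although the table's name says FPKM, all values of a library were whole multiples (tolerance 0.01) of its smallest value above 0, as counts divided by 1 factor per library are, and they were used as a continuous signal. The submitters' processing notes name hg19. The aligner, counter and annotation are not given in the sources used here. The table's columns are named siZDHHC20 and NC and were matched to shZDHHC20 and shControl by group and replicate number.

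Gene names came from the reference table for 27175 of 27394 identifiers and otherwise from GENCODE 29 (GRCh38), the source of positions and exon lengths. Genes with a mean of at least 1 were tested with limma 3.58.1 in R 4.3.3 (lmFit, eBayes with a mean-variance trend, two-sided) on log2(value + 0.1), with Benjamini-Hochberg adjustment over all genes tested. Fold changes of genes near 0 depend on the pseudocount, and zeros can make them larger than the ratio of the group means. ESRP1, for example, had a log2 fold change of 2.70 at a ratio of means of 2.60, and from 0.767 to 3.81 over the settings. Shares and ratios were compared by exact permutation over libraries, and figures were drawn with matplotlib 3.10.9 in Python 3.11.15. The design had foreseen FPKM values, and its test was kept, with division by exon length added for levels. Genes with an adjusted p under 0.05 were named from each list, up to 6, or the 2 most abundant where fewer than 2 passed, with the 5 genes most like CDH1, and further list genes and CDH1 neighbours were named after their values were seen. The members, the lists and the tests were chosen with earlier results of these data known, so no count over a list is independent support. In a simulation of all 27394 genes, 198 of 200 with a 2-fold change were recovered (median absolute error in log2 units 0.0544), and 4 of 22009 unchanged genes were called. Whether such counts hold for the measured libraries, among which shZDHHC20 replicate 2 stood apart from its group, was not tested. It was not established that the smallest value of each library stands for a single read. The absolute depth was therefore not used, and no interval for counting error is given. The alternatives changed the pseudocount (to 1 or 0.01), the filter (none, or a minimum mean of 5), the scaling (median ratio, quantile), the variance model (no trend, robust), added a replicate block, or dropped 1 library at a time.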

Additional observations from a re-analysis of the deposited data

How the results depend on the processing

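CDH1 and ZDHHC20 kept their direction and passed under all 15 alternatives, and CDH2, CDH3, CTNNB1 and CTNND1 passed under none. CTNNA1 had a log2 fold change of 0.17 but an adjusted p (limma) of 0.0589 with a pseudocount of 0.01, 0.0625 with no filter, 0.286 with no mean-variance trend and 0.0739 with the replicate block. The number of members that passed was 1 under each of these 4 settings, and the cause was not tested. With 1 library left out, the log2 fold change of CTNNA1 ranged from 0.12 to 0.20, the number of members that passed from 1 to 2, that of all genes from 1233 to 4454 and that of the genes of the other lists from 16 to 38, against 31 with all 6 libraries. With no mean-variance trend, 351 genes of all and 5 of the other lists (PTPN1, TCF7, CCND1, EPCAM and LUM) passed. Deviations from the group means had correlations of -0.192, -0.271 and -0.0784 between same-numbered libraries of the 2 groups. These cannot decide whether samples were paired, as deviations of 3 libraries sum to 0 and shZDHHC20 replicate 2 stood apart. The numbers were not taken to pair the samples, and with the replicate block 1942 genes passed against 2541. The difference in the share of CDH1 was 9.84 percentage points when values were not divided by length and 9.22 points per longest coding transcript, an alternative chosen after seeing the data, against 8.70. The sign turned for KRT8 with quantile normalization (0.0054) and, with 1 library left out, for JUP (-0.0304 to 0.00731), TANGO6 (-0.0751 to 0.0743), CD14 (-0.612 to 0.0278) and CDH4 (-0.000103 to 0.348), of which KRT8 passed in 2 of 16 settings and the others in none. Quantile normalization made 47.9% of calls higher, against 40.3%. Median-ratio scaling, with a factor of 1.0045 in every library, could hardly change a result and changed no call of a member. The planned edgeR test on whole reads was not run, because the steps between values of the shControl libraries were too close to 1 to recover reads by the criterion set for it.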

Other observations

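The genes whose pattern was most like that of CDH1 were found by the root-mean-square difference of log2 values, each centred on its own mean over the 6 libraries, among the 12050 genes whose mean reached 50. The closest was COL21A1, a collagen chain gene, with a difference of 0.0861 and normalized counts of 136 to 147 in shControl and 290 to 309 in shZDHHC20. ALPG, an alkaline phosphatase gene, followed at 0.0969, with 2145 to 2245 and 4355 to 4659 normalized counts. LEPR, the leptin receptor gene, stood at 0.13, SPINT1, a gene for a membrane inhibitor of serine proteases, at 0.132, and SLITRK6, a gene for a neuronal membrane protein, at 0.133. Their log2 fold changes were 1.09, 1.06, 0.93, 0.90 and 0.90, and all 5 passed (adjusted p of at most 6.31e-05, limma). With only 2 groups of 3 libraries, this likeness mostly measures a change of the same size, and it is a description of these libraries.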
